A study of Mus musculus with 48 samples.

Results

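Sphingolipids are membrane and signalling lipids built on a sphingoid base. Their synthesis starts in the endoplasmic reticulum, where serine palmitoyltransferase condenses serine with palmitoyl-CoA, and it passes through dihydroceramide to ceramide, which is the branch point of the pathway. Ceramide can be turned into sphingomyelin or glycosphingolipids, and it is released again from sphingomyelin by sphingomyelinases. Cleavage of ceramide gives sphingosine, whose phosphate (S1P) travels in blood largely bound to apolipoprotein M on high-density lipoprotein. In liver and fat, ceramides are studied for their links to insulin action and steatosis.

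The 10 genes described here cover part of those steps, among the 56748 Ensembl genes counted in each library. Smpd3 encodes a neutral sphingomyelinase, and Apom encodes apolipoprotein M. Sptlc1, Sptlc2 and Sptlc3 encode subunits of serine palmitoyltransferase. Cers2, Cers5 and Cers6 encode ceramide synthases with different acyl chain preferences, Degs1 encodes the dihydroceramide desaturase, and Sgms1 encodes a sphingomyelin synthase. Smpd3 and Apom were chosen by their measured genotype difference in liver, so their liver values are a description without a test, and only their values in fat were tested. The other 8 genes were taken as the named steps of the pathway, with earlier results of these data known. All 10 symbols matched 1 Ensembl identifier each.

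The tissues of these male mice were liver, brown fat (BAT, brown adipose tissue) and white fat from beside the epididymis (eWAT), and their RNA was sequenced in bulk. hepAGT-/- mice (KO) lack hepatocyte angiotensinogen (Agt), and hepAGT+/+ littermates (WT) keep it. What drives the hepatocyte deletion, and the age of the mice, are not given in the sources used here. Every mouse ate a Western diet with 21% milk fat and 0.2% cholesterol over 12 weeks, so no group had standard chow. Housing was at 20 to 22 °C, called room temperature (RT), or at 30 °C, called thermoneutrality (TN). The 12 groups of tissue, genotype and housing held 4 libraries each, which the labels call biological replicates, and the 48 libraries had 23711728 to 43687848 counts. Levels are in CPM, counts scaled to a common library size by the trimmed mean of M values, and a mean ± SD is over a group of 4 libraries. Sums of marker genes are in CPM of the total counts, without that scaling. Changes are log2 fold changes from edgeR, KO minus WT or TN minus RT. A gene was called when its quasi-likelihood p was under 0.05 after Benjamini-Hochberg adjustment, which ran over every gene in the fit.

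The tissue labels were compared with marker genes first. The summed level of 8 hepatocyte genes was 54629 to 94905 CPM in liver and at most 4757 CPM in any fat library. The 6 brown adipocyte genes summed to 3228 to 13064 CPM in BAT and to at most 39.8 CPM in eWAT. In liver at RT, Agt stood at 368 ± 75 CPM for WT and 167 ± 27 CPM for KO (edgeR log2 change -1.14, SE 0.18, adjusted p 0.0096), so KO livers kept part of the Agt signal. One eWAT library, WT RT replicate 18, held 1103 CPM of 8 epididymis genes, against at most 15.4 CPM in the other eWAT libraries. Smpd3 lies on chromosome 8 (106252548 to 106337988, minus strand, GRCm38) and shares 247 of its 5232 exon bases with Prmt7 on the other strand. Apom lies on chromosome 17 (35128997 to 35132050, minus strand) and shares exon bases with no gene of the annotation. The strand setting of the counting is not given in the sources used here, so reads from the shared bases of Smpd3 and Prmt7 cannot be told apart.

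The windows of 250 bases before the start of Cers6 and of Sptlc3 are shown as a contrast: Cers6 was read in every library and was far lower in BAT than in liver or eWAT, and Sptlc3 was at 0 in 29 of 48 libraries. They come from RefSeq (GRCm38.p6, plus strand, chr2:68861191-68861440 and chr2:139493663-139493912), and capitals mark the CCAAT motif.
Cers6: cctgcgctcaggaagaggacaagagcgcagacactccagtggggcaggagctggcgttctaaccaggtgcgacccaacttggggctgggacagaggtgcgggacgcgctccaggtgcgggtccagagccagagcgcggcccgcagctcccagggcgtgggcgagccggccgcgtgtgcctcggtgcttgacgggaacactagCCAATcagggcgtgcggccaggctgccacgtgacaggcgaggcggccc
Sptlc3: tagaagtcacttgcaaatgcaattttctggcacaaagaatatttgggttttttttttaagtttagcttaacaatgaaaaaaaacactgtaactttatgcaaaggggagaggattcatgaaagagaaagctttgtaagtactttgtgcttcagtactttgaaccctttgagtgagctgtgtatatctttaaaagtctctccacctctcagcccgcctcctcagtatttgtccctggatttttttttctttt
The Cers6 window has 70.4% G and C bases and 1 CCAAT, 48 bases before the start. The Sptlc3 window has 35.6%, the lowest share among the members, and none of the 3 motifs searched on both strands. The windows of Apom and Degs1 also held none of the 3, and Degs1 was read in every library. Of 32851 windows of this length, 12.4% held the TATA box motif TATAAA. The letters CCAAT were in 33.8%, and the GC box motif GGGCGG was in 32.7%, and the median share of G and C was 52.4%. A window was matched for 9 of the 10 members.

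Smpd3, which releases ceramide from sphingomyelin, was lower in KO than in WT liver at both housing temperatures and higher at TN than at RT in both genotypes. At RT its level was 10.2, 14.0, 15.7 and 15.9 CPM in the 4 WT livers and 3.67, 4.23, 4.85 and 6.04 CPM in the 4 KO livers. At TN it was 20.1, 21.1, 28.0 and 29.2 CPM in WT and 8.21, 11.7, 12.1 and 15.8 CPM in KO. The 4 KO livers lay below the 4 WT livers at each temperature, and within each genotype every TN liver lay above every RT liver. The RT means were 13.9 ± 2.6 CPM for WT and 4.70 ± 1.0 CPM for KO, which is -1.57 on the log2 scale (SE 0.22). At TN they were 24.6 ± 4.7 and 12.0 ± 3.1 CPM, a log2 change of -1.04 (SE 0.21). The change from RT to TN was 0.82 (SE 0.21) in WT and 1.35 (SE 0.22) in KO. In order, WT TN stood highest. WT RT and KO TN came next, with means 13.9 and 12.0 CPM and overlapping libraries, and KO RT stood lowest. Of all genes tested in liver, 0.0853% were called for genotype at RT and 3.18% at TN, and the same contrasts chose Smpd3 and Apom, so nothing is read from that share. In a tissue extract, fewer cells that express a gene and less RNA of it per cell cannot be told apart.

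Apom, the plasma carrier of S1P, had the opposite liver pattern for genotype. At RT its level was 77.4, 79.9, 85.3 and 104 CPM in WT livers and 145, 152, 166 and 201 CPM in KO livers, so the groups did not overlap. At TN it was 64.6, 83.6, 90.2 and 133 CPM in WT and 114, 117, 147 and 164 CPM in KO. There the highest WT liver, replicate 1, lay above the lowest 2 KO livers. The means were 86.7 ± 12 and 166 ± 25 CPM at RT, a log2 change of 0.94 (SE 0.18), and 92.8 ± 29 and 136 ± 24 CPM at TN, a log2 change of 0.55 (SE 0.18). From RT to TN the change was 0.10 (SE 0.18) in WT and -0.30 (SE 0.18) in KO, with overlapping libraries in both genotypes. The order of the 4 means was KO RT, KO TN, WT TN and WT RT, and each neighbour in that order overlapped the next.

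**Figure D1:**
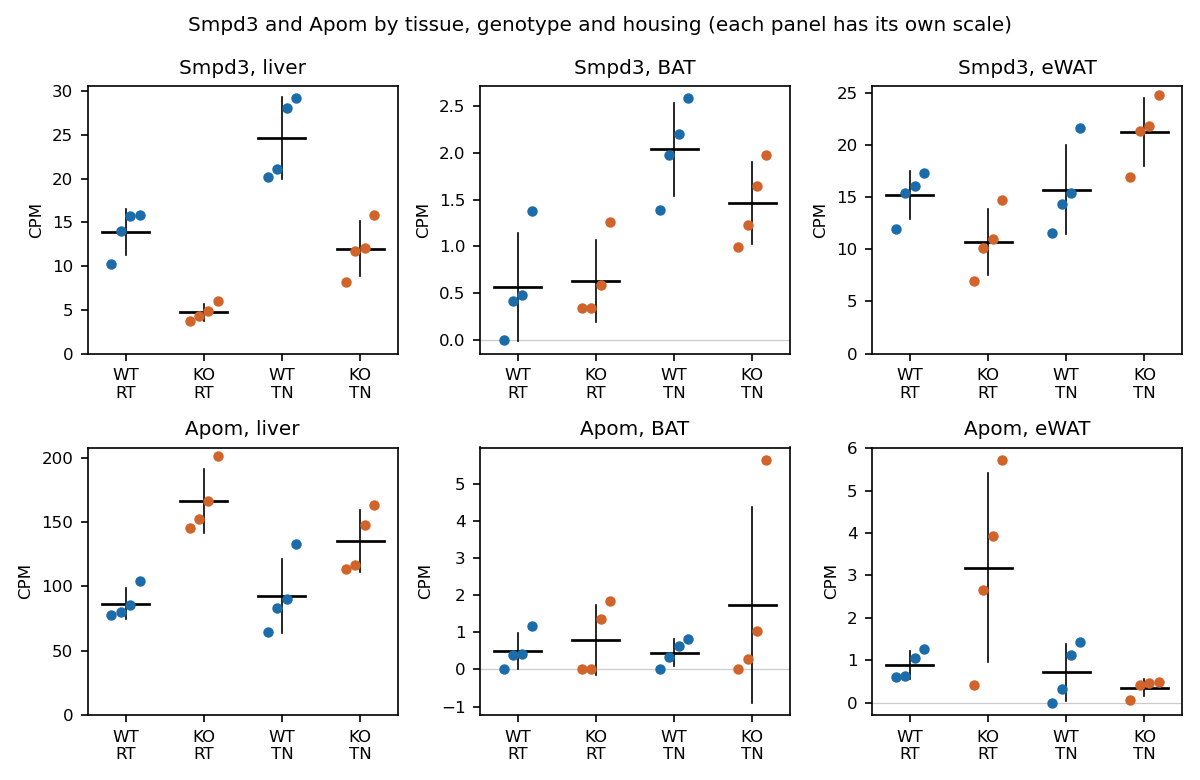
CPM of Smpd3 (top) and Apom (bottom) in liver, BAT and eWAT; points are libraries (WT blue, KO orange), horizontal lines are group means and vertical lines ± SD (n = 4), and each panel has its own linear axis. In liver the KO points of Smpd3 lie under the WT points at both temperatures (means 4.70 against 13.9 CPM at RT and 12.0 against 24.6 CPM at TN), and the BAT panels stay under 3 CPM for Smpd3.

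Across the 16 livers, the genes whose log2 CPM followed Smpd3 most closely were Tceal8 (Pearson r 0.92), Plvap (0.89) and Apoa4 (0.88), among 11839 candidates. Plvap encodes a protein of endothelial diaphragms and Apoa4 an intestinal and hepatic apolipoprotein. After the group means were subtracted, r was 0.63 for Tceal8, 0.81 for Plvap and 0.22 for Apoa4. Plvap thus kept a high r over deviations pooled across the groups, and Apoa4 followed Smpd3 mostly through the groups. The same 16 livers chose these genes, so the r left is not a second observation. The 7 endothelial marker genes summed to 138 to 206 CPM in WT and 176 to 201 CPM in KO livers at RT, to 157 to 264 CPM in WT and 203 to 332 CPM in KO at TN, and none of them was called for genotype at either temperature by edgeR. The part of endothelial cells in the Smpd3 values was not tested. For Apom the closest were Rdh16f2 (0.92), Cyp2c68 (0.86) and Gstm7 (0.85), with 0.83, 0.68 and 0.82 left after group means. Smpd3 and Apom themselves had r -0.74 over the 16 livers and -0.27 within groups. These values share libraries and depth, and the genes were picked as the highest of many, so no p is given.

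In fat, Smpd3 was tested, as it had been chosen by its liver values. In eWAT at RT it was 11.9, 15.4, 16.1 and 17.3 CPM in WT and 7.01, 10.1, 11.0 and 14.7 CPM in KO. The TN levels were 11.6, 14.3, 15.4 and 21.6 CPM in WT and 17.0, 21.4, 21.9 and 24.8 CPM in KO. The genotype groups overlapped at both temperatures, with a log2 change of -0.50 (SE 0.22, edgeR adjusted p 0.217) at RT and 0.44 (SE 0.21, adjusted p 0.381) at TN. Within KO, every TN library lay above every RT library, and Smpd3 rose by 0.99 on the log2 scale from RT to TN (SE 0.22, edgeR adjusted p 0.0313). It was the only called member of 10 in that comparison, in which 1.74% of all genes tested were called (1.02% higher), and the only one without overlap, beside 9.25% of all genes. In WT eWAT the change was 0.05 (SE 0.21, adjusted p 0.993), and the test of the difference between the genotypes gave 0.94 (SE 0.30, adjusted p 0.565), so the rise in KO is not shown to differ from WT. That test called 0 of all 18933 genes in eWAT. The Smpd3 call in KO ended without any one of 4 libraries (KO RT replicates 10 and 19, KO TN replicates 3 and 4), with log2 changes of 0.88 to 0.98 and adjusted p of 0.073 to 0.119, and in the fit of only the 8 libraries compared (0.96, adjusted p 0.0776). The 7 stellate and fibroblast genes summed to 1602 to 1866 CPM in KO eWAT at RT and to 2201 to 2849 CPM at TN, with 1 of 7 called higher, and the 8 macrophage genes to 370 to 562 CPM at RT and 549 to 712 CPM at TN, with none called. Their part in the Smpd3 rise was not tested.

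In BAT, Smpd3 was near the limit of counting. WT libraries held 0, 0.417, 0.480 and 1.37 CPM at RT and 1.39, 1.97, 2.20 and 2.58 CPM at TN. KO libraries held 0.340, 0.341, 0.587 and 1.26 CPM at RT and 0.993, 1.23, 1.64 and 1.98 CPM at TN. Every WT TN library lay above every WT RT library, while the KO groups overlapped. The log2 change from RT to TN was 1.83 (SE 0.75, edgeR adjusted p 0.0693) in WT and 1.20 (SE 0.73, adjusted p 0.319) in KO, and neither was called. DESeq2 called the WT change (adjusted p 0.0242). The genotype difference in BAT was 0.15 (SE 0.74, adjusted p 0.934) at RT and -0.48 (SE 0.71, adjusted p 0.999) at TN.

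Apom in fat was low, and its levels are given beside those of hepatocyte genes. It had 0 counts in 6 of the 32 fat libraries, and its highest values were 5.73 CPM in eWAT KO RT replicate 16 and 5.66 CPM in BAT KO TN replicate 2. The 8 hepatocyte genes summed to 4757 CPM in the first and 2605 CPM in the second, each the highest of its group. The same library was the top of its group for both measures in 4 of the 8 fat groups. Per 1000 CPM of hepatocyte genes, Apom was 0 to 32.0 CPM in fat libraries with a median of 1.21, and 0.812 to 2.56 CPM in liver libraries. No genotype comparison of Apom in fat was called. In eWAT at RT its levels were 0.601, 0.625, 1.06 and 1.28 CPM in WT and 0.423, 2.66, 3.93 and 5.73 CPM in KO. The edgeR log2 change was 1.84 (SE 0.89, adjusted p 0.293). In BAT at TN the change was 1.96 (SE 1.67, adjusted p 0.999), and over the alternatives tried it ranged from -0.02 to 2.43, with the low end without KO TN replicate 2. For housing, the largest change of Apom in fat was in KO eWAT, from 0.423, 2.66, 3.93 and 5.73 CPM at RT to 0.0633, 0.428, 0.456 and 0.488 CPM at TN. Those groups overlapped through RT replicate 9. The log2 change was -3.12 (SE 0.94), not called by edgeR (adjusted p 0.0952) and called by DESeq2 (adjusted p 0.00695). The 8 hepatocyte genes summed to 119 to 4757 CPM in these KO libraries at RT and to 56.1 to 510 CPM at TN, with a median log2 change of -2.86 and none of 8 called. The part of hepatocyte RNA in the fat values of Apom was not tested.

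**Figure D2:**
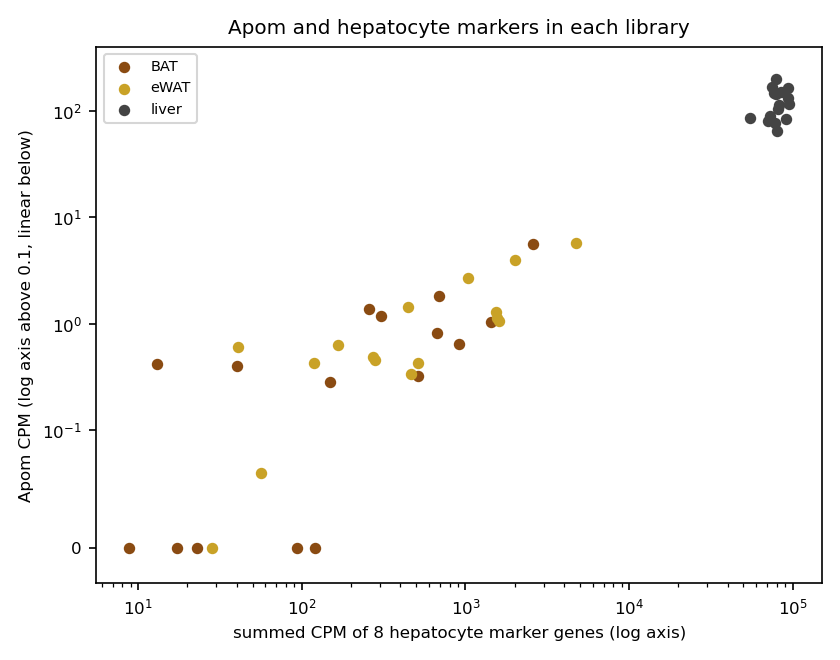
Apom CPM (vertical, logarithmic above 0.1 and linear below) against the summed CPM of 8 hepatocyte genes (horizontal, logarithmic) in each of the 48 libraries, coloured by tissue. The fat libraries with most Apom (5.73 and 5.66 CPM) also hold most hepatocyte RNA (4757 and 2605 CPM), and 6 fat libraries lie at 0 Apom.

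The first step of the pathway is serine palmitoyltransferase, an enzyme of Sptlc1 with either Sptlc2 or Sptlc3 as the catalytic partner. In liver, Sptlc2 was 25.3, 25.3, 25.6 and 25.8 CPM in WT and 14.5, 18.4, 22.6 and 25.2 CPM in KO at RT, a log2 change of -0.34 (SE 0.18, edgeR adjusted p 0.551). The WT livers differed by less than 1 CPM among themselves and lay just above the highest KO liver, so the groups did not overlap but the difference was not called. At TN, Sptlc2 was 21.4 to 32.5 CPM in WT and 16.6 to 26.1 CPM in KO, and the log2 change was -0.45 (SE 0.18, edgeR adjusted p 0.174). Sptlc1, the shared subunit, stood at 31.9 ± 4.9 CPM for WT and 25.5 ± 4.0 CPM for KO livers at RT with overlapping libraries (log2 change -0.32, SE 0.15, edgeR adjusted p 0.463).

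Sptlc3 was all but missing from liver, with 0 counts in 14 of 16 libraries and at most 9 counts in the others. In BAT, 9 of 16 libraries had 0 counts, and in eWAT 6 of 16. It passed the filter on low counts in the eWAT fit and in no other tissue fit. In eWAT at RT the 4 WT libraries held 0.163, 0.541, 0.611 and 4.64 CPM, and all 4 KO libraries had 0 counts. Sptlc3 fell in KO there (edgeR adjusted p 0.0332), and with a floor of 3 counts per library in KO the WT mean was at least 15.4-fold higher. The library at 4.64 CPM was WT RT replicate 18, which also held the 1103 CPM of epididymis genes. Without it the WT mean was at least 4.54-fold higher and the change was not called (adjusted p 0.0944). The call also ended without any one of KO replicates 9, 10, 16 and 19 or WT replicates 13 and 15 (adjusted p 0.0549 to 0.0844), and with no filter on low counts (adjusted p 0.0553). The part of epididymis RNA in this difference was not tested. At TN the eWAT groups overlapped, with 0, 0.528, 0.975 and 1.73 CPM in WT and 0, 0.353, 0.390 and 0.639 CPM in KO (adjusted p 0.744).

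The ceramide synthases attach the fatty acid to the sphingoid base. Cers6, which prefers palmitoyl-CoA, was lower in KO than in WT liver by its means without passing the test. At RT it was 19.1, 24.5, 29.6 and 33.9 CPM in WT and 6.18, 16.1, 16.8 and 17.8 CPM in KO, so the groups did not overlap. At TN it was 25.7, 42.4, 42.4 and 44.9 CPM in WT and 13.1, 21.5, 25.4 and 26.4 CPM in KO, where the lowest WT liver lay among the KO livers. The log2 changes were -0.92 (SE 0.30, edgeR adjusted p 0.27) and -0.85 (SE 0.30, adjusted p 0.136). DESeq2 called the change at TN (adjusted p 0.0431) and not that at RT (adjusted p 0.0679). Across the 16 livers Cers6 had r 0.74 with Smpd3, but -0.02 once group means were subtracted.

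Cers5, which also makes ceramides with shorter acyl chains, was low in liver and had its highest values in KO livers at TN. WT livers held 1.42, 3.03, 3.37 and 4.86 CPM at RT and 1.93, 2.37, 2.69 and 3.71 CPM at TN. KO livers held 2.03, 2.22, 2.65 and 2.66 CPM at RT and 4.00, 4.60, 4.89 and 6.18 CPM at TN. The 4 KO TN livers lay above the 4 WT TN and above the 4 KO RT livers, the latter beside 7.25% of all genes without overlap. The log2 change KO minus WT was -0.41 (SE 0.34, edgeR adjusted p 0.759) at RT and 0.88 (SE 0.34, adjusted p 0.17) at TN, and TN minus RT in KO was 1.04 (SE 0.35, adjusted p 0.226). The test of the difference gave 1.29 (SE 0.49, adjusted p 0.557), so none of these was called. Cers2, the synthase of very long chains and the most abundant of the 3 in liver, stood at 387 ± 24 CPM for WT and 358 ± 20 CPM for KO livers at RT (log2 change -0.11, edgeR adjusted p 0.816).

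Degs1, which sets the double bond that turns dihydroceramide into ceramide, stood at 59.3 ± 8.4 CPM for WT and 69.4 ± 5.3 CPM for KO livers at RT (log2 change 0.22, edgeR adjusted p 0.59). Sgms1, which makes sphingomyelin from ceramide, was 16.2 ± 4.0 and 17.1 ± 2.5 CPM (log2 change 0.08, adjusted p 0.946). Over the 8 members not picked for their liver change, 7 passed the filter on low counts in liver. edgeR called 0 of the 7 for genotype at either temperature, beside 0.0853% of all genes at RT and 3.18% at TN. Under an unadjusted p of 0.05 were 2 at RT and 3 at TN, beside 1799 and 3099 of all 17594 genes. DESeq2 called 0 and 1 of the 7, beside 203 and 1111 of all genes. The median log2 change of the 7 was -0.32 at RT and -0.21 at TN, beside 0.02 and 0.05 over all genes tested. Groups without overlap were found for 2 of 7 members at RT, beside 5.83% of all genes, and for 1 of 7 at TN, beside 12.5%. For housing, edgeR called 0 of 7 in WT livers (0.0227% of all genes) and 0 of 7 in KO livers (0.114%). Under an unadjusted p of 0.05 were 0 and 1, beside 1276 and 1849 of all genes. DESeq2 called none, beside 75 and 362 of all genes. Cers5 in KO was the only one of the 7 without overlap between temperatures, and WT had none, beside 3.93% of all genes. For the interaction of genotype and housing edgeR called 0 of 7 members and 0 of all 17594 genes. Of the 7, 1 was under an unadjusted p of 0.05, beside 1290 of all genes, and DESeq2 called 0, beside 17.

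**Figure D3:**
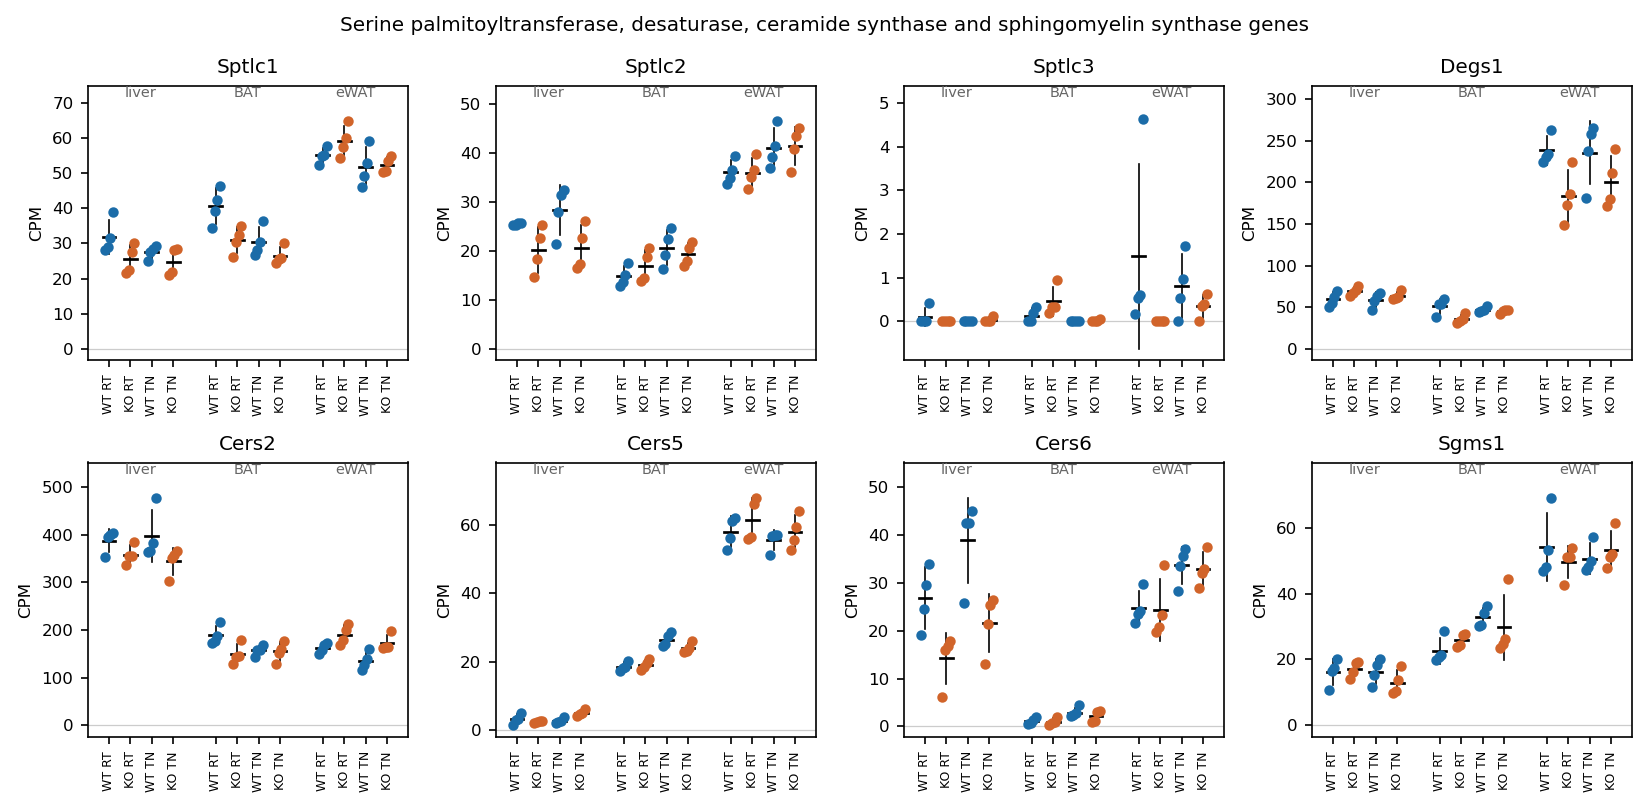
CPM of the 8 members that were not picked for a liver change, by tissue, genotype and housing; points are libraries (WT blue, KO orange), horizontal lines are means and vertical lines ± SD (n = 4), on linear axes that differ between panels. Cers6 is near 0 in BAT and stands at 14.2 to 38.8 CPM by group means in liver, Degs1 and Cers5 are highest in eWAT, and the Sptlc3 mean of WT RT eWAT rests on a library at 4.64 CPM.

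A list of 56 other sphingolipid genes was read beside the members, of which 50 were tested in liver. For genotype at RT edgeR called 0 of 50, beside 0.0853% of all genes. Under an unadjusted p of 0.05 were 5, beside 1799 of all 17594 genes. DESeq2 called 1, beside 203 of all genes. At TN, 1 was higher and 1 lower in KO by edgeR, beside 3.18% of all genes. DESeq2 called 2 higher and 3 lower, beside 1111 of all genes in either direction. Cerk, the kinase that phosphorylates ceramide, rose from 4.26 to 9.08 CPM by means (log2 change 1.09, SE 0.26, edgeR adjusted p 0.0223). Cert1, the protein that carries ceramide to the Golgi, fell from 62.9 to 41.5 CPM (log2 change -0.60, SE 0.13, adjusted p 0.0164). In both genes the 4 livers of one genotype lay wholly beyond the other 4, as in 9 of the 50, beside 12.5% of all genes. Cerk was not called without any one of KO TN replicates 4 and 22 or WT TN replicates 1, 6 and 7 (0.97 to 1.07, adjusted p 0.0517 to 0.0903). Cert1 was not called without KO TN replicate 4 or WT TN replicate 1 (-0.58 and -0.55, adjusted p 0.0629 and 0.0539). The 8 macrophage genes summed to 212 to 357 CPM in WT and 348 to 879 CPM in KO livers at TN, with 2 of 8 called higher, and their part in these changes was not tested. For housing in liver, 0 of 50 were called in either genotype, beside 0.0227% of all genes in WT and 0.114% in KO. Under an unadjusted p of 0.05 were 6 in WT and 11 in KO, beside 1276 and 1849 of all genes. DESeq2 called 0 and 4, beside 75 and 362 of all genes.

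**Figure D4:**
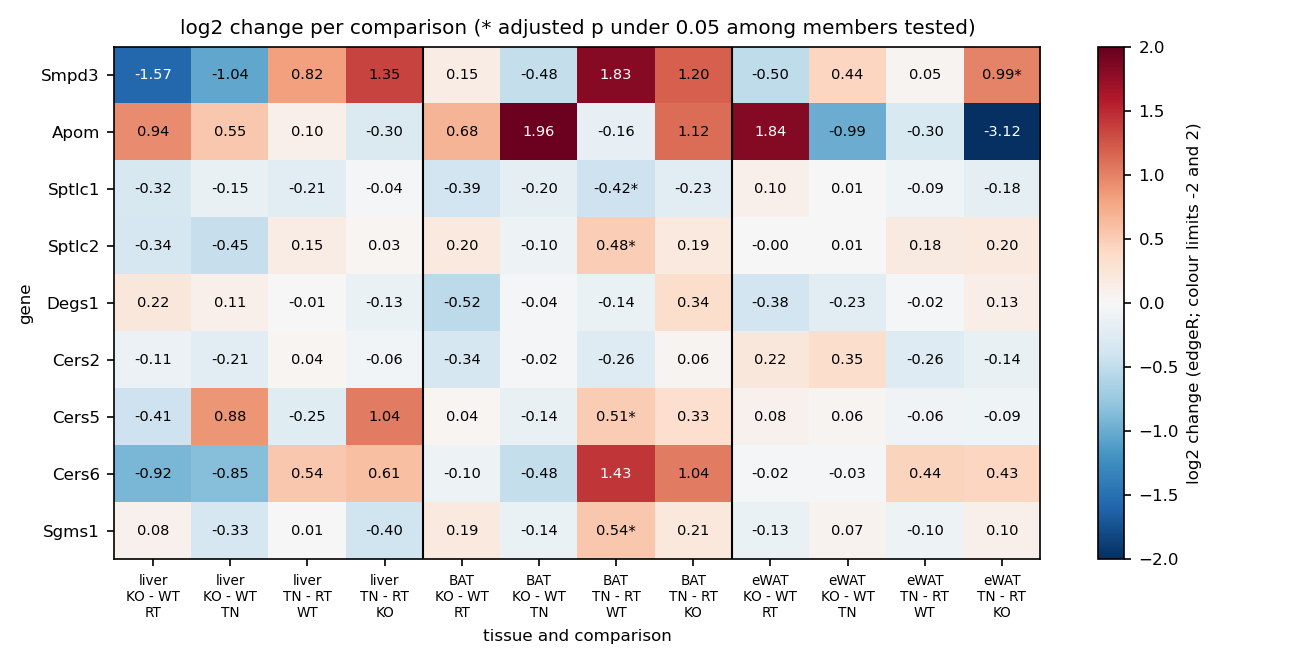
log2 change (edgeR) of 9 members in the 12 comparisons within a tissue, coloured from -2 (blue) to 2 (red), with an asterisk where the adjusted p was under 0.05 among members tested; Smpd3 and Apom in liver carry no asterisk by design, and Sptlc3 is left out because it was at 0 in most libraries. The asterisks are 4 in BAT for TN minus RT in WT and 1 in eWAT for Smpd3 in KO (0.99).

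BAT is the tissue that makes heat in the cold, and housing temperature had more calls there than in liver or eWAT. In WT mice, 4 of the 9 members tested passed the test, 3 higher and 1 lower at TN, beside 32.5% of all genes tested (15.9% higher and 16.7% lower). Cers5 was 17.2, 18.1, 18.5 and 20.3 CPM at RT and 24.5, 25.2, 27.5 and 28.6 CPM at TN, and rose by 0.51 on the log2 scale (SE 0.12, edgeR adjusted p 0.0026). Its libraries did not overlap, and it was called in all 13 alternatives tried. Sgms1 was 19.7, 20.7, 21.3 and 28.5 CPM at RT and 30.2, 30.3, 34.3 and 36.2 CPM at TN, again without overlap, and rose by 0.54 (SE 0.18, adjusted p 0.0301).

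Both subunits of serine palmitoyltransferase tested in WT BAT passed the test, in opposite directions. Sptlc2 rose by 0.48 (SE 0.17, edgeR adjusted p 0.0359), from 12.8, 13.7, 15.0 and 17.5 CPM at RT to 16.3, 19.2, 22.4 and 24.7 CPM at TN. Sptlc1 fell by 0.42 on the log2 scale (SE 0.14, adjusted p 0.0253), from 34.3, 39.3, 42.4 and 46.4 CPM at RT to 26.7, 28.1, 30.3 and 36.4 CPM at TN. In each gene 1 library or more of the groups overlapped. The 3 calls other than Cers5 each ended without single libraries. Sptlc1 was not called without RT replicate 15 or 17 or TN replicate 1, 6 or 7 (-0.40 to -0.34, adjusted p 0.0631 to 0.116), with no filter on low counts (adjusted p 0.0737) or with only the 8 libraries compared (adjusted p 0.0718). Sptlc2 was not called without RT replicate 15, 17 or 18 or TN replicate 1 or 6 (0.41 to 0.49, adjusted p 0.0664 to 0.107). Sgms1 was not called without RT replicate 15, 17 or 18 or TN replicate 1 (0.48 to 0.51, adjusted p 0.0747 to 0.0912). The count of called members was 1 to 4 when a library was left out, and 6 with DESeq2, which called Smpd3 and Cers6 as well as these 4. Of all 18032 genes, DESeq2 called 6639 in this comparison.

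Cers6 in WT BAT was 0.475, 0.626, 1.34 and 1.88 CPM at RT and 2.14, 2.35, 2.79 and 4.38 CPM at TN. Those groups did not overlap, but the log2 change of 1.43 (SE 0.58, edgeR adjusted p 0.0664) was not called, and DESeq2 called it (adjusted p 0.0367). Cers2 was 172, 176, 188 and 217 CPM at RT and 144, 158, 158 and 168 CPM at TN, also without overlap (log2 change -0.26, SE 0.14, adjusted p 0.155). In all, 5 of the 9 members had groups without overlap, beside 27.2% of all genes. The median log2 change of the 9 was 0.48, beside 0.11 over all genes tested, so the whole distribution lay somewhat above 0. Degs1 stood at 51.2 ± 8.9 and 46.6 ± 3.2 CPM (log2 change -0.14, edgeR adjusted p 0.458).

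In KO BAT, edgeR called 0 of the same 9 members between TN and RT, beside 15.2% of all genes. Under an unadjusted p of 0.05 were 2, beside 5035 of all 18032 genes. DESeq2 called 1, beside 3436 of all genes. Cers5 was 17.6, 18.4, 19.7 and 20.7 CPM at RT and 22.7, 23.0, 24.1 and 26.1 CPM at TN, the only member tested without overlap, beside 21.3% of all genes (log2 change 0.33, SE 0.12, adjusted p 0.0628). Sgms1 was 23.7, 24.3, 27.4 and 27.6 CPM at RT and 23.6, 24.6, 26.3 and 44.5 CPM at TN, so only TN replicate 2 stood high (log2 change 0.21, SE 0.18, adjusted p 0.52). The interaction of genotype and housing was called by edgeR for 0 of 9 members in BAT and for 0 of all 18032 genes. It had 1 of the 9 under an unadjusted p of 0.05, beside 1832 of all genes, and DESeq2 called 0, beside 21. For Cers5 it was -0.18 (SE 0.16, adjusted p 0.697), for Sgms1 -0.33 (SE 0.26, adjusted p 0.643), for Sptlc1 0.19 (SE 0.19, adjusted p 0.732) and for Sptlc2 -0.29 (SE 0.24, adjusted p 0.666). The WT calls are therefore not shown to be larger than the KO changes.

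Among the other sphingolipid genes tested in BAT, 14 of 50 rose and 5 fell from RT to TN in WT, beside the 15.9% and 16.7% of all genes given above. In KO, 6 rose and 1 fell, beside 6.64% higher and 8.52% lower of all genes. In WT, Ugcg, which makes glucosylceramide, rose from 8.07 to 23.3 CPM by means (log2 change 1.53, SE 0.25, edgeR adjusted p 2.3e-04). B4galnt1, a ganglioside synthase, rose from 0.48 to 2.89 CPM (2.56, SE 0.65, adjusted p 0.0061). Smpdl3b, a sphingomyelinase-like phosphodiesterase, rose from 0.325 to 1.76 CPM (2.40, SE 0.76, adjusted p 0.0213), and was not called without WT TN replicate 7 (2.07, adjusted p 0.0755). The S1P receptor gene S1pr5 fell from 6.10 to 1.54 CPM (-1.98, SE 0.47, adjusted p 0.004).

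St3gal5, the synthase of the ganglioside GM3, fell from 96.3 to 31.7 CPM in WT BAT (-1.60, SE 0.45, edgeR adjusted p 0.0151) and from 73.1 to 19.1 CPM in KO BAT (-1.94, SE 0.46, adjusted p 0.0112). The WT call ended without RT replicate 15 or TN replicate 1 or 6 (-1.48 to -1.32, adjusted p 0.0504 to 0.0594) or with only the 8 libraries compared (-1.57, adjusted p 0.0546). Gm2a, a ganglioside activator protein, fell from 76.7 to 49.7 CPM in WT (-0.63, SE 0.20, adjusted p 0.0202), and was not called without RT replicate 15 or 17 or TN replicate 6 or 7 (-0.55 to -0.51, adjusted p 0.065 to 0.0842) or with only the 8 libraries compared (-0.60, adjusted p 0.0524). In KO, Ugcg rose from 12.4 to 24.0 CPM (0.95, SE 0.25, adjusted p 0.0147), and was not called without RT replicate 19 or TN replicate 2 (0.83 and 0.77, adjusted p 0.0564 and 0.0577). The receptor gene S1pr2 rose from 1.26 to 3.21 CPM in KO (1.34, SE 0.40, adjusted p 0.0302), and its call ended without any one of RT replicates 9, 14 and 19 or TN replicates 2 and 5 (1.09 to 1.42, adjusted p 0.051 to 0.0773). Sgpp1, a phosphatase of S1P, rose from 6.33 to 11.6 CPM in KO (0.88, SE 0.24, adjusted p 0.0197), and its call ended without RT replicate 10 or TN replicate 2 or 5 (0.69 to 0.77, adjusted p 0.0636 to 0.0829) or with only the 8 libraries compared (0.90, adjusted p 0.0527). The interaction was called for 0 of the 50 genes in BAT by edgeR, as for 0 of all 18032 genes. Of the 50, 7 were under an unadjusted p of 0.05, beside 1832 of all genes, and DESeq2 called 0, beside 21.

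Markers of other cells moved with housing in BAT. In WT, the 7 stellate and fibroblast genes summed to 247 to 323 CPM at RT and 863 to 1456 CPM at TN, with 4 of 6 tested called higher. The 8 macrophage genes summed to 27.1 to 76.2 CPM at RT and 131 to 338 CPM at TN, with 3 of 7 tested called higher. The 7 endothelial genes summed to 136 to 438 and 259 to 832 CPM, with 3 of 7 called higher. The 6 brown adipocyte genes summed to 7872 to 13064 CPM at RT and 3675 to 7274 CPM at TN, with 4 of 6 called lower. In KO, 3 of 6 stellate, 3 of 7 macrophage and 0 of 7 endothelial genes were called higher, and 4 of 6 brown adipocyte genes lower. Skeletal muscle genes ranged from 1.19 to 336 CPM at RT and from 7.52 to 4667 CPM at TN in WT, with none of 6 called. In KO they ranged from 2.18 to 3213 CPM at RT and from 1.32 to 6294 CPM at TN, with none of 6 called. The part of these cells in the BAT changes of sphingolipid genes was not tested.

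**Figure D5:**
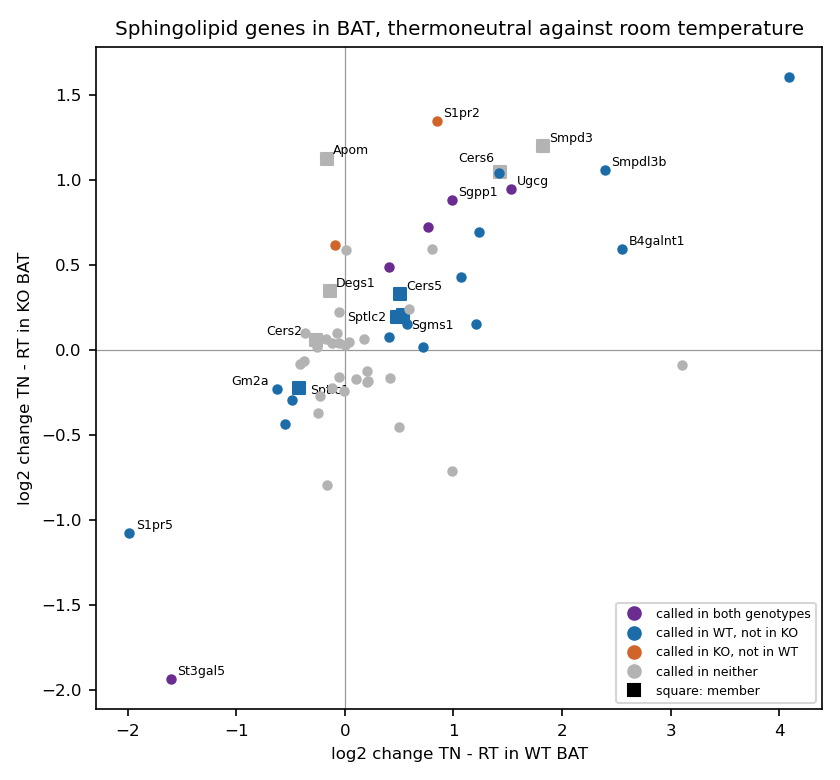
log2 change from RT to TN in KO BAT (vertical) against WT BAT (horizontal) for 9 members (squares) and 50 other sphingolipid genes (circles), coloured by where the gene was called; the 2 axes use different libraries. Smpd3 (1.83 and 1.20) and Cers6 (1.43 and 1.04) lie at the upper right without a call, and St3gal5 (-1.60 and -1.94) lies at the lower left with a call in both genotypes.

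For genotype in BAT, edgeR called 0 of 9 members at RT, beside 0.0887% of all genes. Under an unadjusted p of 0.05 were 3, beside 3507 of all 18032 genes. DESeq2 called 1, beside 981 of all genes. Degs1 had the smallest p, with 38.4, 53.2, 53.9 and 59.3 CPM in WT and 31.4, 33.9, 35.2 and 42.3 CPM in KO, and its edgeR log2 change was -0.52 (SE 0.13, adjusted p 0.0981). WT replicate 12 was the WT library that overlapped KO. Without it, Degs1 (adjusted p 0.0069) and Sptlc1 (adjusted p 0.0411) were called, with log2 changes of -0.64 and -0.46. Its removal takes out the overlap of both genes, so these calls are no separate support. DESeq2 called Degs1 (adjusted p 0.0142). The other 11 of 13 alternatives called 0 members. WT replicate 12 had 438 CPM of the 7 endothelial genes, the highest of its group, which otherwise started at 136 CPM, while KO BAT held 388 to 804 CPM. The part of endothelial cells in these values was not tested. At TN edgeR called 0 of 9 members and no gene of the whole table. Under an unadjusted p of 0.05 were 0 of the 9, beside 945 of all genes. DESeq2 called 0 of the 9, beside 20 of all genes. Degs1 at TN stood at 46.6 ± 3.2 CPM for WT and 45.3 ± 2.3 CPM for KO. Of the other sphingolipid genes, edgeR called 0 of 50 for genotype at either temperature in BAT. Under an unadjusted p of 0.05 were 10 at RT and 5 at TN, beside 3507 and 945 of all genes. DESeq2 called 4 and 0, beside 981 and 20 of all genes.

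In eWAT, genotype called 1 of 10 members at RT, the fall of Sptlc3 given above, beside 4.34% of all genes (3.13% lower). Its groups were the only ones without overlap, beside 10.9% of all genes. Degs1 was 225, 231, 235 and 264 CPM in WT and 149, 173, 186 and 225 CPM in KO (log2 change -0.38, SE 0.14, edgeR adjusted p 0.144). Cers2 leaned the other way, with 162 ± 10 CPM in WT and 189.6 ± 20 CPM in KO (0.22, SE 0.11, adjusted p 0.309). At TN edgeR called 0 of 10, beside 0.586% of all genes. Under an unadjusted p of 0.05 was 1, beside 2603 of all 18933 genes. DESeq2 called 0, beside 675 of all genes. Cers2 at TN was 116, 126, 139.7 and 159 CPM in WT and 163, 164, 164 and 198 CPM in KO, the only member without overlap, beside 9.51% of all genes (0.35, SE 0.11, adjusted p 0.154). For housing, edgeR called 0 of 10 members in WT eWAT and no gene of the whole table. Under an unadjusted p of 0.05 were 2, beside 1324 of all genes. DESeq2 called 0, beside 100 of all genes. Cers6 was higher at TN by 0.44 in WT and 0.43 in KO, in neither case with a call (adjusted p 0.522 and 0.159).

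Of the other sphingolipid genes, 0 of 51 were higher and 4 lower in KO eWAT at RT by edgeR, beside 4.34% of all genes (3.13% lower). DESeq2 called 0 higher and 8 lower, beside 1509 of all 18933 genes in either direction. Sgms2, the second sphingomyelin synthase gene, fell from 18.1 to 8.12 CPM by means (-1.16, SE 0.26, edgeR adjusted p 0.0187). Cers4, another ceramide synthase gene, fell from 101 to 58.6 CPM (-0.78, SE 0.18, adjusted p 0.0228). Glb1, a lysosomal galactosidase gene, fell from 42.9 to 26.5 CPM (-0.70, SE 0.13, adjusted p 0.0062), and was called in all 13 alternatives. In each, every KO library was under every WT library. Groups without overlap were found for 8 of the 51, beside 10.9% of all genes. Sgms2 was not called without KO replicate 10 or 19 or WT replicate 15 or 18 (-1.12 to -0.94, adjusted p 0.059 to 0.0724). Cers4 was not called without KO replicate 9, 10 or 19 or WT replicate 13 or 18 (-0.80 to -0.61, adjusted p 0.0579 to 0.103). The fourth, Gltp, a glycolipid transfer protein gene, lay outside the naming rule by size and fell from 139.5 to 95.6 CPM (-0.55, adjusted p 0.0169). The 8 macrophage genes summed to 494 to 741 CPM in WT and 370 to 562 CPM in KO eWAT at RT, with 2 of 8 called lower, and their part in these changes was not tested. At TN, edgeR called 0 of 51, beside 0.586% of all genes. Under an unadjusted p of 0.05 were 16, beside 2603 of all 18933 genes. DESeq2 called 5, beside 675 of all genes.

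The genotype effects were also compared between tissues over the 24 libraries of a housing temperature, without a block for shared replicate numbers. At TN the effect on Cers5 was larger in liver than in BAT by 0.99 on the log2 scale (SE 0.22, edgeR adjusted p 0.0405). It was the only called member of 8, beside 0.506% of all genes (0.265% higher). The 2 effects behind it, from the fits of each tissue, were 0.88 (SE 0.34) in liver and -0.14 (SE 0.12) in BAT. The call ended without any one of 11 of the 16 libraries, namely BAT KO replicates 3, 4 and 5, BAT WT replicates 1, 6 and 7, liver KO replicates 4 and 5, and liver WT replicates 1, 6 and 7 (0.85 to 1.02, adjusted p 0.0612 to 0.092). It also ended with no filter on low counts (adjusted p 0.0578) and with the replicate number as a block (1.00, adjusted p 0.196). Against eWAT the effect on Cers5 differed by 0.79 (SE 0.21, edgeR adjusted p 0.053), and edgeR called 0 of 8 members, beside 2.02% of all genes. Under an unadjusted p of 0.05 were 3, beside 3554 of all 20374 genes. DESeq2 called 2, beside 1140 of all genes. At RT, edgeR called 0 of 8 members between liver and BAT (0.181% of all genes) and 0 of 8 between liver and eWAT (0.211%). Under an unadjusted p of 0.05 were 3 and 3, beside 2595 and 2068 of all 19899 genes. DESeq2 called 1 and 0, beside 387 and 294 of all genes. Sptlc3 counts among these 8 but was at 0 in most libraries, so its values carry little.

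In the same fits, Cerk had a larger genotype effect in liver than in eWAT at TN, by 1.51 (SE 0.37, edgeR adjusted p 0.0384), the one call among 51 other sphingolipid genes. That call ended without any one of 13 of the 16 libraries (1.38 to 1.54, adjusted p 0.05 to 0.0975), and with the replicate number as a block (1.52, adjusted p 0.403). The 3 whose removal kept it were liver KO replicate 2, liver WT replicate 24 and eWAT WT replicate 8.

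The levels of the members differed widely between tissues. WT libraries at RT were used for this comparison. CPM were scaled within each tissue, whereas tests between tissues used 1 scaling over the 24 libraries at RT. The joint scaling adds 0.17 to a log2 difference of liver minus BAT, 0.46 to liver minus eWAT and 0.30 to BAT minus eWAT, relative to the CPM values printed. Per kilobase of exon, the scale on which genes can be set beside each other, Cers2 stood highest in liver at 105 ± 6.4 CPM per kb. It was followed there by Apom at 85.6 ± 12, Degs1 at 22.9 ± 3.2, Sptlc1 at 8.96 ± 1.4 and Sptlc2 at 3.14 ± 0.030. Cers6 at 3.02 ± 0.72 and Smpd3 at 2.66 ± 0.50 followed within their spread, and Cers5 came at 0.894 ± 0.40. In eWAT, Degs1 led at 92.1 ± 6.6 and Cers2 followed at 44.2 ± 2.8 CPM per kb. In BAT, Cers2 led at 51.2 ± 5.5 and Degs1 followed at 19.8 ± 3.5, while Cers6 at 0.122 ± 0.074 and Smpd3 at 0.109 ± 0.11 were near 0.

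Between liver and BAT, 5 of the 8 members tested differed, 4 higher and 1 lower in liver, beside 55.0% of all genes (26.6% higher and 28.4% lower). Cers6 was higher in liver by 4.79 (SE 0.47, edgeR adjusted p 1.1e-08), at 26.8 ± 6.4 against 1.08 ± 0.65 CPM. Cers2 was higher in liver by 1.21 (SE 0.11, adjusted p 1.5e-09) and Sptlc2 by 0.95 (SE 0.16, adjusted p 1.7e-05), while Cers5 was lower by 2.37 (log2 difference -2.37, SE 0.21, adjusted p 9.6e-10). Degs1 was higher by 0.38 (SE 0.14, adjusted p 0.026), a call that ended without BAT replicate 12 or liver replicate 11 or 15 (0.27 to 0.36, adjusted p 0.0601 to 0.112). By description, Apom was 7.57 higher in liver than in BAT on the log2 scale, and Smpd3 4.75 higher.

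Between liver and eWAT, 5 of 8 differed, 1 higher and 4 lower in liver, beside 54.9% of all genes (24.7% higher and 30.2% lower). Cers2 was higher in liver by 1.72 (SE 0.11, edgeR adjusted p 3.9e-12). Cers5 had a log2 difference of -3.72 (SE 0.22, adjusted p 7.7e-13), Degs1 of -1.54 (SE 0.15, adjusted p 2.7e-09) and Sgms1 of -1.28 (SE 0.18, adjusted p 1.2e-06), all lower in liver. The call of Sptlc1 (-0.33, SE 0.13, adjusted p 0.0319) ended in DESeq2 (-0.26, adjusted p 0.108), with RLE scaling (-0.26, adjusted p 0.103) and with no filter on low counts (adjusted p 0.052). It also ended without any one of eWAT replicates 13 and 18 or liver replicates 11, 12 and 18 (-0.33 to -0.28, adjusted p 0.0538 to 0.0978). Cers6 was 24.7 ± 3.5 CPM in eWAT, a log2 difference of 0.57 (SE 0.39, adjusted p 0.217) from liver. By description, Smpd3 differed by 0.34 (SE 0.47) for liver minus eWAT on the joint scale, while the CPM scaled within each tissue lay the other way, at 13.9 ± 2.6 in liver and 15.2 ± 2.3 in eWAT with overlapping libraries.

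Between the 2 fat tissues, 7 of 10 members differed, 1 higher and 6 lower in BAT, beside 42.7% of all genes (16.9% higher and 25.7% lower), and each of the 7 was called in all 13 alternatives. Smpd3 was lower in BAT than in eWAT, with a log2 difference of -4.42 (SE 0.57, edgeR adjusted p 7.7e-07), and Cers6 likewise with -4.21 (SE 0.46, adjusted p 9.8e-08). Degs1 had -1.93 (SE 0.15), Cers5 -1.35 (SE 0.20), Sptlc2 -0.99 (SE 0.16) and Sgms1 -0.96 (SE 0.17), and Cers2 alone among the called members was higher in BAT, by 0.51 (SE 0.11), though its libraries overlapped. Of the other sphingolipid genes, 34 of 51 differed between liver and BAT, 38 of 51 between liver and eWAT and 32 of 51 between BAT and eWAT. Beside these stood 55.0%, 54.9% and 42.7% of all genes. Only part of the genes that the naming rule gave are named here. B4galnt1 was 51.6 CPM in liver, 0.48 CPM in BAT and 6.37 CPM in eWAT by means, and Ormdl3, a regulator of serine palmitoyltransferase, was 119 CPM in liver and 428 CPM in BAT. Gltp was 4.33 CPM in liver, 20.6 CPM in BAT and 139.5 CPM in eWAT.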

How the data were processed

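RNA of 3 tissues was sequenced in 48 libraries (paired-end, per the labels). The authors deposited raw counts per Ensembl gene, and the submitters' processing notes name fastp, STAR 2.6.1d, featureCounts 1.5.0-p3, GRCm38 and mm10. The annotation release and the strand setting are not given in the sources used here. Of counts from 1 to 10, 75.9% were even, as when both ends of a pair are counted, so counting limits are in counts, not molecules. Of 56748 identifiers, 52073 had a symbol in GENCODE M21 (GRCm38), and they held at least 94.8% of each library's counts. Depth ranged from 23711728 to 36503849 counts in liver, 25304872 to 39383039 in BAT and 28656921 to 43687848 in eWAT.

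Tests used edgeR 4.0.16 in R 4.3.3 (quasi-likelihood, robust; scaled by TMM; genes kept by filterByExpr at a minimum count of 10), with all 16 libraries of a tissue in a fit, or the 24 libraries of a temperature where tissues were compared. The liver fit then held 17594 genes, the BAT fit 18032 and the eWAT fit 18933. Benjamini-Hochberg adjustment of the two-sided p-values ran over every gene of a fit, at a threshold of 0.05. On simulated counts for liver at RT over 16907 genes, 104 of 200 genes changed 2-fold were recovered. The changed genes were drawn from those with a mean of at least 1 CPM, so lower genes are not covered.

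The 10 members and all lists were chosen with earlier results of these data known. Other sphingolipid genes were named by rule: up to 3 called genes per direction and comparison, largest log2 change first, with a mean of at least 1 CPM. Genes like Smpd3 and Apom were the 3 with the highest Pearson r of log2 CPM (prior count 2) over 16 livers, among named genes averaging at least 1 CPM. Marker lists, 10 in all, were summed per library in CPM of the total counts, without TMM scaling. Promoter windows are from RefSeq. Alternatives were DESeq2 1.42.0, RLE scaling, other filters on low counts, fits of the 8 compared libraries alone, 1 library left out in turn, and a replicate block. Replicate numbers were shared by libraries of different tissues, and the labels do not say whether a number names a mouse. The main tests between tissues used no block and so treated all libraries as independent. If a shared number is 1 mouse, their p-values do not allow for it.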

Additional observations from a re-analysis of the deposited data

Results flagged for a closer look

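Within the 120 combinations of a member and a group, 10 held 1 library far from the other 3, by a gap wider, relative to the group's range, than Dixon's 95% critical value for 4 libraries. For normally distributed values, chance gives this in about 1 of 20 groups. That rate does not hold for Sptlc3 where all other libraries of a group had 0 counts, since any count is then flagged. Groups at 0 in every library could not be flagged, yet stand among the 120. Cers6 in liver stood low at 6.18 CPM in KO RT replicate 9, with the next library at 16.1 CPM, and at 25.7 CPM in WT TN replicate 7, with the next at 42.4 CPM. Cers2 in eWAT stood high at 198 CPM in KO TN replicate 5, with the next at 164 CPM, and Apom stood low at 0.0633 CPM in the same library, with the next at 0.428 CPM. Cers5 in eWAT stood low at 51.1 CPM in WT TN replicate 6, with the next at 56.9 CPM. Sgms1 in BAT stood high at 44.5 CPM in KO TN replicate 2, with the next at 26.3 CPM. Of the BAT libraries, that one held the most hepatocyte RNA (2605 CPM of 8 genes). It also held the most skeletal muscle RNA (6294 CPM of 6 genes) and endothelial RNA (1036 CPM of 7 genes). Sgms1 stood at 9.74 to 17.8 CPM in KO livers at TN. The part of these cells in the Sgms1 value was not tested.

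Sptlc3 stood high in 4 groups: at 4.64 CPM in eWAT WT RT replicate 18 (next 0.611 CPM), at 0.413 CPM in liver WT RT replicate 18, at 0.132 CPM in liver KO TN replicate 2 and at 0.0551 CPM in BAT KO TN replicate 3. In the last 3 groups the other libraries had 0 counts.

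Tissues differed in the genotype effect for Cers5 at TN, by 0.99 on the log2 scale between liver and BAT (SE 0.22, edgeR adjusted p 0.0405). They also differed for Cerk at TN, by 1.51 between liver and eWAT (SE 0.37, adjusted p 0.0384). Both calls ended with the replicate number as a block (edgeR adjusted p 0.196 and 0.403).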

How the results depend on the processing

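None of the called changes, and neither Smpd3 nor Apom in liver for genotype, turned its direction under any alternative run; values that were not called did turn sign, among them Apom in BAT for genotype at both temperatures and for temperature in both genotypes. The causes of the moves below were not tested. With DESeq2, called members came to 1 (edgeR 0) for genotype in liver at TN and in BAT at RT, 6 (edgeR 4) for temperature in WT BAT, 1 (edgeR 0) for temperature in KO BAT, 0 (edgeR 1) for genotype in eWAT at RT, and 2 (edgeR 1), Smpd3 and Apom, for temperature in KO eWAT. For the difference of genotype effects, DESeq2 called 1 member at RT between liver and BAT (edgeR 0) and 2 at TN between liver and eWAT (edgeR 0). Over all genes, DESeq2 called 1509 for genotype in eWAT at RT and 1154 for temperature in KO eWAT. RLE scaling and a filter of at least 1 CPM in at least 4 libraries each gave 1 in place of 0 for temperature in KO BAT and for TN liver minus eWAT, and that filter gave 0 in place of 1 for genotype in eWAT at RT, where Sptlc3 was not tested. With no filter on low counts, 0 members were called for genotype in eWAT at RT and for TN liver minus BAT. With only the 8 libraries compared, 0 were called for genotype in eWAT at RT and for temperature in KO eWAT. For genotype in eWAT at RT, Sptlc3 had no adjusted p in DESeq2 or in the fit of those 8 libraries.

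With 1 library left out, called members ranged from 0 to 2 for genotype in BAT at RT, 1 to 4 for temperature in WT BAT, 0 to 1 for genotype in eWAT at RT, 0 to 2 for temperature in KO eWAT, and 0 to 1 for RT liver minus BAT, TN liver minus BAT and TN liver minus eWAT. Smpd3 in liver ranged from -1.71 to -1.46 at RT and from -1.21 to -0.90 at TN over all alternatives, and Apom from 0.84 to 1.04 and from 0.41 to 0.77.

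Libraries of different tissues share replicate numbers. The deviations of 35 same-numbered pairs from their group means had correlations of -0.28 to 0.13 (median 0.0095), 1 of them over 0.1. In 21 of 70 cases a library correlated best with its own number. Low correlations between different tissues cannot show that a shared number is not 1 mouse. The main tests used no block, and the block was run as an alternative. The replicate block gave 0 called members in each of the 4 differences of genotype effects (Cers5 1.00, adjusted p 0.196; Cerk 1.52, adjusted p 0.403) and 4, 4 and 7 for the tissue levels, in place of 5, 5 and 7, with Degs1 (0.33, adjusted p 0.11) and Sptlc1 (-0.30, adjusted p 0.0985) not called. Within a tissue no number is shared between groups. The same alternatives for other sphingolipid genes were chosen after seeing the data.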
